A study of Mus musculus with 12 samples.

Results

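The genes described here encode the nuclear-encoded subunits of the mitochondrial respiratory chain and the ATP synthase, measured in dendritic cells labelled p38a knockout (KO) or wild type (WT). A gene was a member when its only symbol on a probe set began with Ndufa, Ndufb, Ndufc, Ndufs, Ndufv, Uqcr, Cox4i, Cox5, Cox6, Cox7 or Atp5, or was Sdha, Sdhb, Sdhc, Sdhd or Cyc1, and the Ndufaf assembly factors were left out. This gave 80 genes with 164 probe sets, among 18194 genes measured, and the probe set with the highest mean over the arrays stood for each gene. The 80 genes comprised 36 of complex I, 4 of complex II, 9 of complex III, 14 of complex IV and 17 of the ATP synthase. This split went by gene symbol alone, and every Nduf gene, Ndufa4 and Ndufa4l2 included, was counted under complex I. Of these, 77 passed the filter on low signals and were tested. The other 3, Cox7b2, Ndufa4l2 and Ndufb4, were too dim to test.

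The respiratory chain passes electrons from NADH (through complex I) and succinate (through complex II) to coenzyme Q, complex III, cytochrome c and complex IV, where oxygen is reduced. Proton pumping by complexes I, III and IV drives the ATP synthase. Dendritic cells and macrophages stimulated through Toll-like receptors are known to shift their energy metabolism towards glycolysis, and respiration is regulated in such cells at many levels other than RNA.

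RNA came from cultured mouse lymph node dendritic cells of the C57BL/6 strain, and 2 arrays (A and B) were made for each of 6 groups. The groups were KO cells at 2 h and 4 h of the TLR2 ligand Pam3CSK4 and unstimulated KO cells (0 h), and WT cells at 2 h and 4 h and unstimulated WT cells. Pam3CSK4 is a synthetic triacylated lipopeptide, given at 1 mg/ml per the labels, and p38a is the stress-activated kinase encoded by Mapk14. The labels name neither the deleted exons, nor a Cre driver, nor the animals behind arrays A and B, so p-values measure the spread between arrays, which may be technical. Levels are given as log2(signal + 16) after quantile normalisation, differences are on the same log2 scale, and a call is an adjusted p under 0.05 over all 12792 genes tested. Levels of different genes were not compared, since each probe set has its own brightness. In RNA from whole cell preparations, fewer cells of a type and less RNA per cell cannot be told apart.

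Mapk14 was called higher, not lower, on the arrays labelled KO (0.31 ± 0.08 over the 3 times, limma adjusted p = 0.014), a call that ended without array B of WT 2 h (adjusted p = 0.052) and when its probe sets were averaged (adjusted p = 0.22). Its level ran from 7.93 to 8.37 on the KO arrays and from 7.44 to 8.41 on the WT arrays. Of its 3 probe sets above the filter, 0 were called lower in KO over the 3 times. The sources used here do not say whether its probes lie in the deleted part. The 2% trimmed mean of the deposited signals ran from 66.6 to 119, a 1.79-fold range, so arrays were first put on 1 scale. All 14 dendritic cell markers measured passed the filter, among them the dendritic cell transcription factor Zbtb46, the growth factor receptor Flt3 and the integrin Itgax. Markers of other cell types passed it too, with 7 of 8 for T cells (all but Cd4) and 4 of 5 for B cells (all but Pax5). All of the 5 for NK cells, 5 for neutrophils and 6 for stromal cells passed. Some markers in these lists lay close to the filter of 4.73, so passing it does not show that a cell type was present. On KO arrays the dendritic cell markers Cd209a and Xcr1 ran from 4.18 to 5.21 and from 4.18 to 5.05. The neutrophil marker Mpo ran from 4.61 to 5.07 there, and the stromal marker Col1a1 from 4.30 to 5.01. The T cell marker Cd3d ran from 8.26 to 8.64 on KO arrays and from 8.13 to 8.50 on WT arrays. Markers of macrophages and monocytes were present on every array, with a mean level of 10 genes of 8.02 to 8.41 on KO arrays and 7.48 to 7.80 on WT arrays, which did not overlap.

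Promoter sequence is shown for 4 members on which the results below turn: the ATP synthase subunits Atp5c1 and Atp5h and the complex I subunit Ndufa8, which fell after stimulation, and the complex I subunit Ndufb1, which rose. Each runs 5′ to 3′ on the gene's strand from 250 bases before to 50 bases after the annotated start (RefSeq, build GRCm38.p6, minus strand for all 4), at chr2:10080383-10080682 for Atp5c1, chr11:115419870-115420169 for Atp5h, chr2:36049289-36049588 for Ndufa8 and chr12:101975689-101975988 for Ndufb1. Atp5c1 had 2 promoter entries and the one with a motif is shown. Capitals mark a match, on either strand, to the motif of NRF1 (GCGCA and GCGC with any 1 base between them) or of ETS factors such as GABP (CCGGAAGT), known regulators of nuclear genes for mitochondrial proteins.
Atp5c1: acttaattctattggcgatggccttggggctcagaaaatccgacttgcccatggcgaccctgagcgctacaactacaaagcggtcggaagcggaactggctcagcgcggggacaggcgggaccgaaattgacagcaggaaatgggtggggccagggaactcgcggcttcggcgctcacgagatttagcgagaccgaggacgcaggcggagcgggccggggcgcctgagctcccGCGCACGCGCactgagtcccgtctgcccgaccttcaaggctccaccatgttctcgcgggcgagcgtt
Atp5h: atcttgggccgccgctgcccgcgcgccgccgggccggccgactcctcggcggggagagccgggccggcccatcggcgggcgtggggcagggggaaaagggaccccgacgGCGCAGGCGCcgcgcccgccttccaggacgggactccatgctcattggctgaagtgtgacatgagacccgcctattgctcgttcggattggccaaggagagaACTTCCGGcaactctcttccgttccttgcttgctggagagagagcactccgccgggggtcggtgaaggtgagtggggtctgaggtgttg
Ndufa8: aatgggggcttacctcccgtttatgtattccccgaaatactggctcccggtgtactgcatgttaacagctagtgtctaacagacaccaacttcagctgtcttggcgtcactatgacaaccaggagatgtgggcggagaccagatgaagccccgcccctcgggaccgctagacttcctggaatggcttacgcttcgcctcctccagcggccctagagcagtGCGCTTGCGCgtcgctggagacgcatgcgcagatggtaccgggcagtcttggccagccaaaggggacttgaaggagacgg
Ndufb1: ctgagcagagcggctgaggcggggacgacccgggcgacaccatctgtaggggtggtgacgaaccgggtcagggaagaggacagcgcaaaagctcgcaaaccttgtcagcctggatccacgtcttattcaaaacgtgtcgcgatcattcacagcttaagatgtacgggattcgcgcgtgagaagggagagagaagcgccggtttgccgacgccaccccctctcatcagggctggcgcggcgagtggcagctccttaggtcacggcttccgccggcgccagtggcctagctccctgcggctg

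The NRF1 motif starts at base 234 in Atp5c1, base 110 in Atp5h and base 221 in Ndufa8, and an ETS motif starts at base 212 in Atp5h, with no overlap between the matches. A promoter entry was matched for 65 of the 80 members. The NRF1 motif was found in 15 of these 65 (23.1%), against 5.19% of 27025 genes with a promoter of the same length. The YY1 motif (AAGATGGCG) was found in 6 members (9.23%), against 1.64% of all promoters, and the ERR motif (TCAAGGTCA) in 2 (3.08%), against 0.466%. The ETS motif was found in 4 members (6.15%), against 4.31% of all promoters. Among members called lower in at least 1 of the 4 comparisons over time, 8 of 26 with a promoter held the NRF1 motif, and among the tested members without such a call 6 of 37 did. These matches describe letters in the sequence and were not tested for binding.

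Across the 12 arrays the members moved within a narrow band and largely together. The median standard deviation within groups was 0.0782 for the 77 members, against 0.145 for all genes tested. The correlation of a member with the mean of the other members over the 12 arrays had a median of 0.67, and it was highest for Uqcr11, a small subunit of complex III (r = 0.95). It was negative for 6 members, and lowest for Ndufb1 (r = −0.71). These arrays share their scaling and fall into groups, so the correlations are descriptions only. The median correlation was 0.73 in complex I, 0.63 in the ATP synthase, 0.60 in complex II and in complex IV, and 0.56 in complex III.

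The mean level over the 77 members was 9.78 and 9.76 on the unstimulated KO arrays, 9.58 and 9.63 after 2 h, and 9.64 and 9.69 after 4 h. On the WT arrays it was 9.66 and 9.64 before stimulation, 9.55 and 9.53 after 2 h, and 9.58 and 9.53 after 4 h. The stimulated arrays were below the unstimulated arrays of the same genotype, and the KO arrays at 0 h were the highest of all. Complex I gave the same picture, with 9.51 on average on the KO arrays at 0 h and between 9.30 and 9.44 on stimulated KO arrays. The mean over all 12792 genes was also highest on the KO arrays at 0 h, with 6.97 on array B and a higher value on array A, and ran from 6.92 to 6.96 on the others. Sdha, the flavoprotein of complex II that oxidises succinate, ran from 9.44 to 9.65 on KO arrays and from 9.28 to 9.67 on WT arrays. Its partner Sdhb, which carries iron-sulphur clusters, ran from 9.86 to 10.04 on KO arrays and from 9.62 to 9.94 on WT arrays, and neither was called in any comparison.

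**Figure D1:**
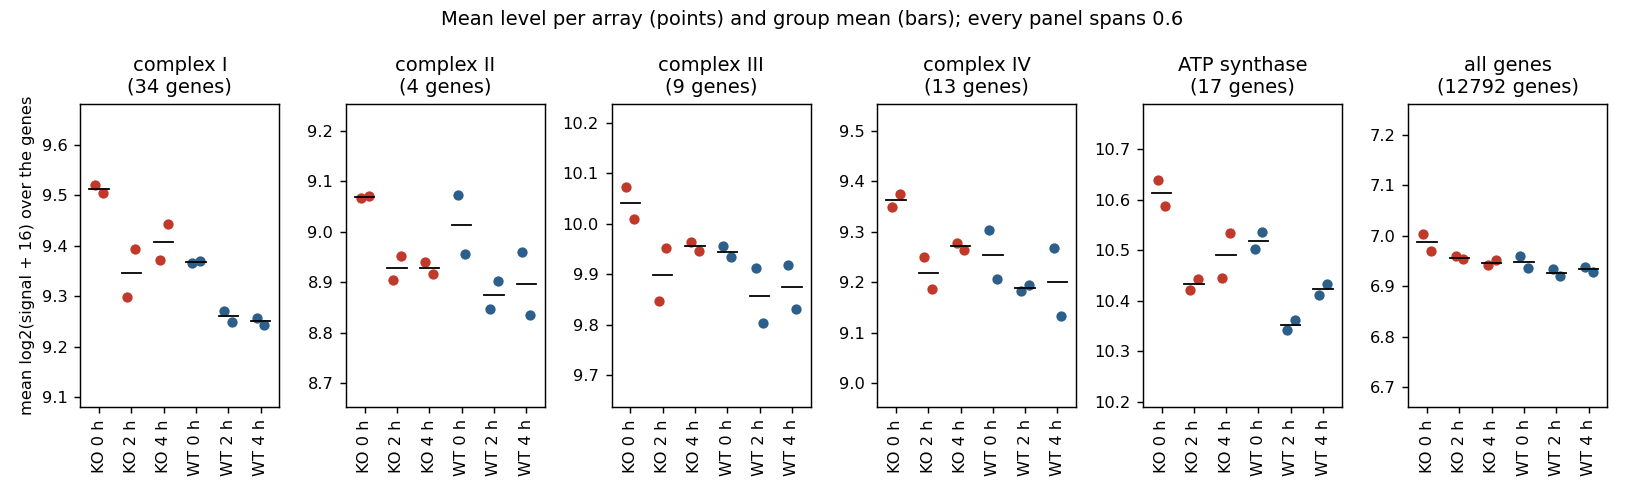
Mean level of the tested members of each complex on each of the 12 arrays (log2 of signal + 16, vertical axis), by genotype and hours of Pam3CSK4, 1 point per array. The KO arrays at 0 h had the highest means over all members, 9.78 and 9.76, but in complex II array A of WT 0 h, at 9.07, lay just above both.

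In KO cells the RNA of a part of the chain was lower by modest amounts after 2 h of Pam3CSK4 than at 0 h. Of the 77 members tested, 19 (24.7%) fell and 1 rose at 2 h against 0 h in KO cells, against 11.7% lower and 7.85% higher of all genes tested. The members that fell were 8 of complex I, 2 of complex III, 4 of complex IV and 5 of the ATP synthase, and none of the 4 complex II genes passed the test. Their falls lay between 0.20 and 0.52 on the log2 scale. The difference was negative for 69 of the 77, with a median of −0.18, against −0.06 for all genes.

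Ndufa8, an accessory subunit of complex I with twin cysteine motifs, had levels of 8.78 and 8.58 at 2 h in KO cells, against 9.10 and 9.29 at 0 h. The arrays did not overlap, and the difference was −0.52 ± 0.10 (SE, 2 arrays per group, limma adjusted p = 0.0013). No member called in any comparison of 2 groups had overlapping arrays, so here and below a lack of overlap adds nothing to a call. Ndufa2, an accessory subunit of the matrix arm of complex I, had 10.20 and 10.31 at 2 h, against 10.61 and 10.65 at 0 h in KO cells (−0.38 ± 0.09, limma adjusted p = 0.0061). Atp5h, a subunit of the peripheral stalk that holds the ATP synthase together, stood at 11.31 and 11.29 at 2 h in KO cells, against 11.74 and 11.56 at 0 h. Its difference was −0.35 ± 0.09 (limma, adjusted p = 0.0091). The call of Ndufa8 held without any 1 array, that of Ndufa2 ended without array A of KO 2 h (adjusted p = 0.065), and that of Atp5h ended without array A of KO 0 h or array B of KO 2 h (highest adjusted p 0.11).

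Ndufv2, a core subunit of the NADH-oxidising module that carries an iron-sulphur cluster, had 9.74 and 9.92 at 2 h in KO cells, against 10.15 and 10.14 at 0 h (−0.31 ± 0.07, limma adjusted p = 0.0062). Its levels at 4 h, 10.20 and 10.18, were not below those at 0 h, and the 2 h call ended without array A of KO 2 h (adjusted p = 0.091). Ndufa1, a membrane subunit of complex I, fell by 0.21. Of complex IV, Cox5a fell by 0.25, Cox7a2 by 0.21, Cox6b1 by 0.20 and Cox5b by 0.20. Of complex III, Uqcrb fell by 0.22 and Uqcrh, the hinge protein next to cytochrome c1, fell by 0.21. Each of these calls on Ndufa1 and on complexes III and IV ended without array A of KO 0 h, and without at least 1 other array of the comparison (adjusted p up to 0.21).

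Ndufb1, a small accessory subunit of the membrane arm, was the 1 member that rose in KO cells at 2 h. It had 7.05 and 6.82 at 2 h, against 6.40 and 6.36 at 0 h (0.55 ± 0.13, limma adjusted p = 0.0082), a call that ended without array A of KO 2 h (adjusted p = 0.086). The number of members called at 2 h in KO cells, 20 in all, was 7 without array A and 11 without array B of KO 0 h, and 5 without array A and 11 without array B of KO 2 h. On the deposited scale, where the median of all genes was itself −0.41, it was 37 members, all lower, against 3218 of 12787 genes lower. With trimmed-mean scaling it was 7 lower and 1 higher of 77, against 1612 lower and 974 higher of 12788 genes. Limma without the intensity trend called 2 lower (2.60%, against 9.01% of all genes) and 1 higher. The excess of lower calls was thus not seen with trimmed-mean scaling or without the trend. Array A of KO 0 h had the highest trimmed mean of all 12 arrays (119), and its part in the result was not tested.

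By 4 h in KO cells 9 members (11.7%) were lower and 0 higher, against 10.9% lower and 7.24% higher of all genes, so the share of lower calls was close to the background. At an unadjusted p under 0.05, 3 members (3.90%) were higher, against 11.4% of all genes. Limma without the intensity trend called 4 lower (5.19%, against 8.47%). The 9 were 5 subunits of complex I, 3 of the ATP synthase and Uqcrh of complex III. The members' median was −0.11, against −0.05 for all genes, and 63 of the 77 differences were negative. Relative to the median of all genes, the members' median was −0.06. It was 0.01 with trimmed-mean scaling and −0.02 on the deposited scale.

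Ndufa13, known also as GRIM-19 and needed for complex I assembly, had 10.11 and 10.28 at 4 h in KO cells, against 10.59 and 10.76 at 0 h (−0.48 ± 0.10, limma adjusted p = 0.0034). Atp5c1 encodes the gamma subunit, the rotor shaft of the ATP synthase. It had 10.79 and 10.78 at 4 h in KO cells, against 11.17 and 11.23 at 0 h (−0.41 ± 0.06, limma adjusted p = 2.6e-04). At 2 h it stood between them, at 10.93 and 10.89, and it was called there too (−0.29 ± 0.06, limma adjusted p = 0.0046). Without probe sets marked as shared, its difference in KO cells was −0.20 at 2 h and −0.02 at 4 h. Neither was then called (limma adjusted p = 0.53 and 0.96), nor with its probe sets averaged (limma adjusted p = 0.11 and 0.16).

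Atp5d, the delta subunit of the same rotor, had 10.30 and 10.32 at 4 h in KO cells, against 10.63 and 10.65 at 0 h (−0.33 ± 0.06, limma adjusted p = 0.0017). Ndufb11 of the complex I membrane arm had 9.68 and 9.73 at 4 h, against 10.03 and 10.08 at 0 h in KO cells (−0.35 ± 0.07, limma adjusted p = 0.0023). Both genes kept tight pairs of arrays and, like all 9 members called, did not overlap with 0 h. Without array B of KO 0 h or without array A of KO 4 h, 5 members were called at 4 h, and without array B of KO 0 h the call of Ndufa13 ended (adjusted p = 0.053). On the deposited scale 0 were called, where the median of all genes was −0.20.

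**Figure D2:**
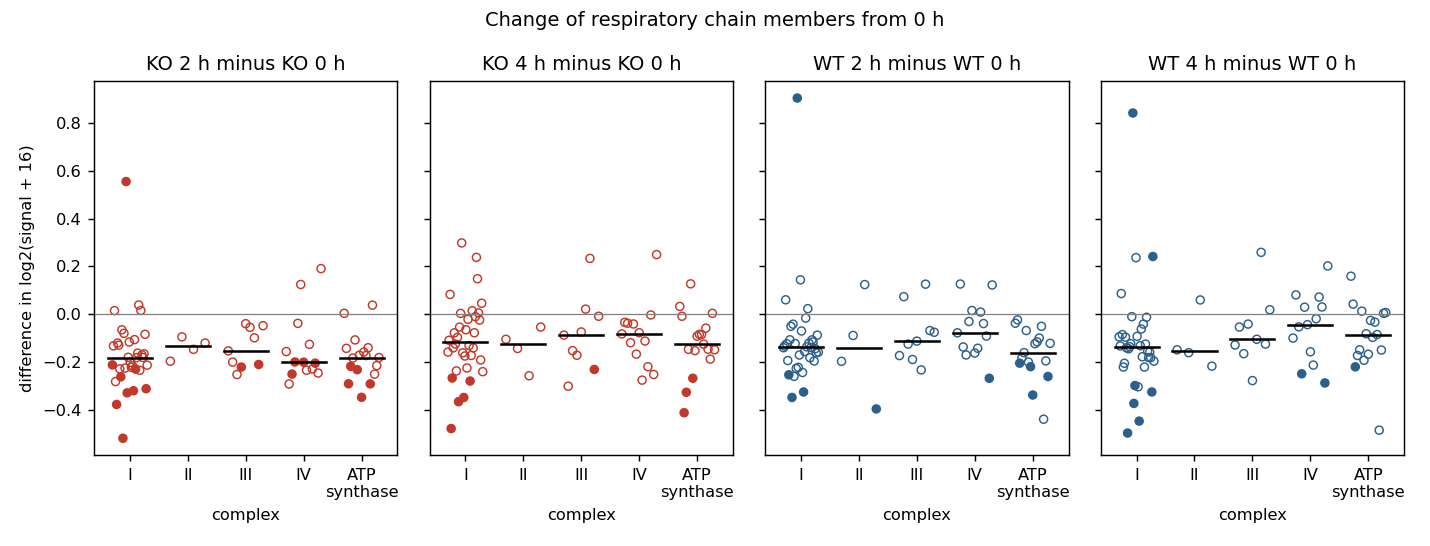
Difference from 0 h of each tested member at 2 h and 4 h of Pam3CSK4 in KO and in WT cells (log2 scale), 1 point per gene, grouped by complex. Most points lie below 0, with medians of −0.18 and −0.11 at 2 h and 4 h in KO cells and −0.13 at both times in WT cells, and Ndufb1 stands apart above 0 at 2 h in KO cells and at both times in WT cells.

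In WT cells 9 members (11.7%) fell and 1 rose at 2 h, against 11.5% lower and 8.43% higher of all genes. At 4 h in WT cells 8 (10.4%) were lower and 2 higher, against 9.9% lower and 8.31% higher of all genes. The shares of lower calls were thus near the background at both times. The direction was one-sided among the members all the same, with negative differences for 66 of 77 at 2 h (85.7%, against 56.9% of all genes) and for 60 at 4 h (77.9%, against 53.7%), and a median of −0.13 at each time. The medians of all genes were −0.05 and −0.02.

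Ndufa6, an accessory subunit of complex I, fell at both times in WT cells. It had 10.04 and 10.02 before stimulation, 9.66 and 9.70 after 2 h, and 9.57 and 9.49 after 4 h, and neither stimulated pair overlapped the unstimulated one. The differences from 0 h were −0.35 ± 0.08 at 2 h (limma, adjusted p = 0.0076) and −0.50 ± 0.08 at 4 h (limma, adjusted p = 5.1e-04). Ndufb6, of the membrane arm, had 9.29 and 9.47 at 4 h in WT cells, against 9.74 and 9.92 at 0 h (−0.45 ± 0.10, limma adjusted p = 0.0051). The 2 h call of Ndufa6 ended without array A of WT 2 h (adjusted p = 0.059), and that of Ndufb6 at 4 h without array B of WT 0 h or array A of WT 4 h (highest adjusted p 0.076). The second probe set of Ndufb6 differed by 0.01 ± 0.08 at 4 h, and the call ended when both were averaged (adjusted p = 0.060).

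Sdhd anchors complex II in the inner membrane, and it was the only complex II gene called in any of the 4 comparisons over time. It had 8.64 and 8.79 at 2 h in WT cells, against 9.07 and 9.15 at 0 h (−0.40 ± 0.09, limma adjusted p = 0.0039). Its levels at 4 h were 8.91 and 8.88, and that difference was not called. Without array A of WT 2 h the 2 h call ended (adjusted p = 0.058), as it did when its 2 probe sets, both lower, were averaged (adjusted p = 0.058).

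Of the ATP synthase, Atp5h, Atp5o, Atp5g3 and Atp5c1 fell at 2 h in WT cells, by 0.34, 0.26, 0.22 and 0.21. Atp5o is the subunit that confers sensitivity to oligomycin, and Atp5g3 is 1 of 3 genes for the same proton-carrying ring subunit. At 4 h in WT cells Atp5c1 alone of the complex was called, with 10.69 and 10.70 against 10.99 and 10.84 at 0 h (−0.22 ± 0.06, limma adjusted p = 0.026). Of complex IV, Cox7a2l, which takes part in the assembly of respiratory supercomplexes, was lower at 2 h (−0.27) and at 4 h (−0.29), and Cox5b at 4 h (−0.25). Of the 5 probe sets of Cox5b above the filter only the brightest passed the test at 4 h, and the other 4 differed by −0.15 to 0.0027. Ndufv1, the subunit that binds flavin and NADH, was lower at 4 h (−0.33 ± 0.09, limma adjusted p = 0.013). Each call in this paragraph ended without at least 2 of the arrays of its comparison, left out 1 at a time (adjusted p up to 0.35).

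Ndufb1 rose in WT cells more than any other member that was tested. It had 6.12 and 6.08 before stimulation, 7.06 and 6.95 after 2 h, and 6.90 and 6.99 after 4 h, so the stimulated arrays were well clear of the unstimulated ones. The differences from 0 h were 0.90 ± 0.13 at 2 h (1.87-fold, limma adjusted p = 1.4e-04) and 0.84 ± 0.13 at 4 h (1.79-fold, limma adjusted p = 2.9e-04). A single probe set measured this gene. Ndufv2 rose at 4 h in WT cells, with a mean of 10.02 against 9.78 at 0 h and no overlap of the arrays (0.24 ± 0.07, limma adjusted p = 0.029). That call ended when either array of WT 0 h or of WT 4 h was left out (highest adjusted p 0.16).

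The 10 members called in WT cells at 2 h became 4 without array A and 5 without array B of WT 2 h, and the 10 at 4 h became 6 without array A of WT 0 h, 6 without array A and 5 without array B of WT 4 h. With trimmed-mean scaling the count at 2 h was 2 lower and 1 higher of 77, against 1665 lower and 1046 higher of 12788 genes. The members' median relative to that of all genes was then 0.01 rather than −0.08. At 4 h that relative median was −0.02 with trimmed-mean scaling rather than −0.10. Limma without the intensity trend called 1 lower (1.30%, against 8.69% of all genes) and 1 higher at 2 h. At 4 h it called 4 lower (5.19%, against 7.62%) and 1 higher. The shares of lower calls without the trend were thus below those of all genes. Most called markers of macrophages and monocytes were also lower over time, with 7 of 10 lower in KO cells at each time and 4 at 2 h and 5 at 4 h in WT cells, against 1 higher at 2 h and 2 higher at 4 h in each genotype, and their part in the members' falls was not tested.

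Called members of KO and WT cells can be set side by side at each time, since these comparisons share no array. At 2 h the 19 members lower in KO cells and the 9 lower in WT cells had 3 in common, Atp5c1, Atp5h and Ndufa6, which is 15.8% of the first list and 33.3% of the second. At 4 h they had Atp5c1 and Ndufb11 in common, which is 2 of the 9 in KO cells and 2 of the 8 in WT cells. Each of these Atp5c1 calls ended when its probe sets were averaged (limma adjusted p from 0.11 to 0.47). The matching overlap among all genes was not computed, so these shared counts are descriptions and not a result about the members. The lists differ in which genes passed the threshold, which does not show that the responses differed. Tested directly, the response in KO cells minus that in WT cells was called for 0 of 77 members at 2 h and for 0 at 4 h, against 0.0313% and 0.0469% of all genes. At an unadjusted p under 0.05 there were 3 members at 2 h (3.90%, against 5.89% of all genes) and 8 at 4 h (10.4%, against 6.06%), and limma without the intensity trend also called 0 at either time.

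Ndufb1 had the lowest response difference at 4 h among the members, −0.54 ± 0.19 (limma, unadjusted p = 0.012, adjusted p = 0.70). Its 4 h levels were 6.54 and 6.81 in KO cells and 6.90 and 6.99 in WT cells, and its 0 h levels were 6.40 and 6.36 in KO cells and 6.12 and 6.08 in WT cells. For Ndufa8 the response difference was −0.26 ± 0.14 at 2 h (limma, adjusted p = 0.87), and for Ndufa6 it was 0.26 ± 0.12 at 4 h (limma, adjusted p = 0.82). None of these passed the test.

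**Figure D3:**
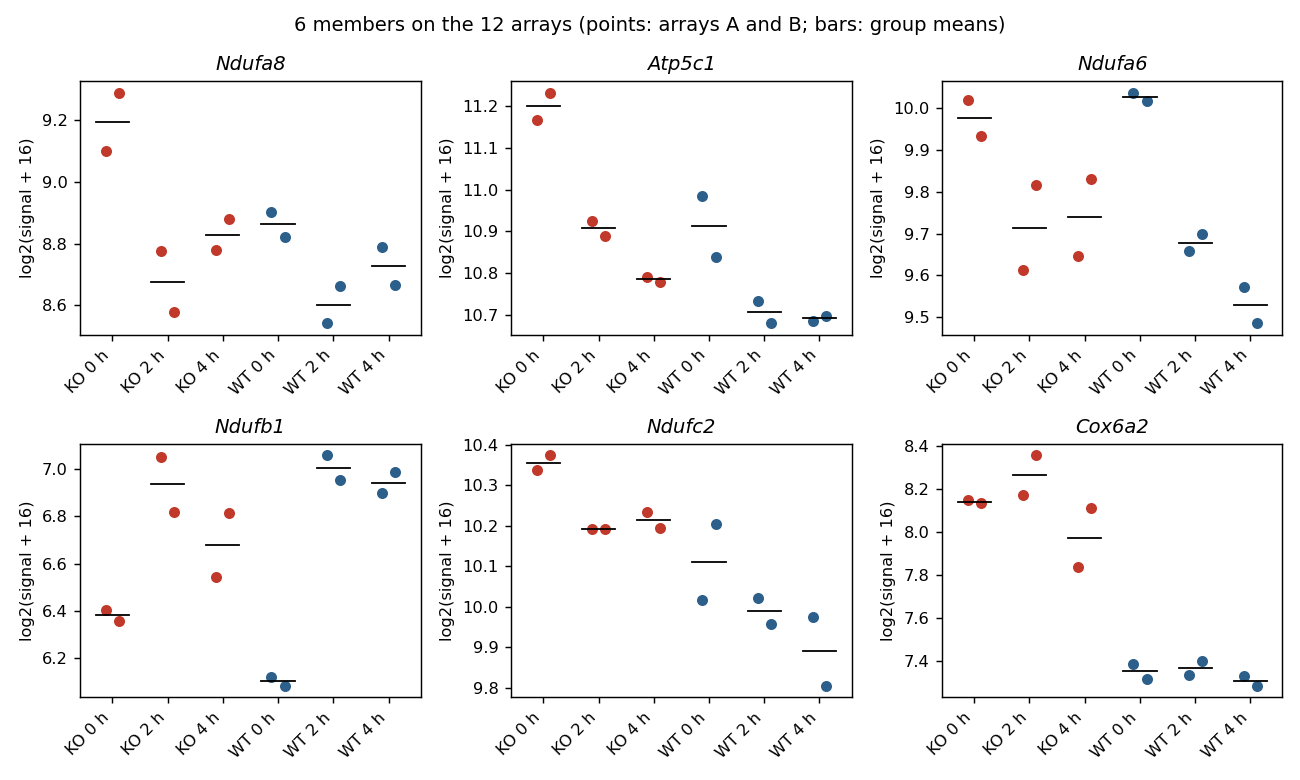
Level of 6 members on each of the 12 arrays (log2 of signal + 16), by genotype and hours of Pam3CSK4, 1 point per array. Ndufa8, Atp5c1 and Ndufa6 lie lower after stimulation in at least 1 genotype, Ndufb1 lies higher, Ndufc2 is higher in KO cells, and Cox6a2 is separated by genotype at every time.

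The clearest difference between genotypes was in Cox6a2, the isoform of cytochrome c oxidase subunit 6A known from heart and skeletal muscle and from mouse plasmacytoid dendritic cells. On the KO arrays it had 8.15 and 8.13 before stimulation, 8.17 and 8.36 after 2 h, and 7.84 and 8.11 after 4 h. On the WT arrays it had 7.39 and 7.31 before stimulation, 7.33 and 7.40 after 2 h, and 7.33 and 7.28 after 4 h. All 6 KO arrays lay above all 6 WT arrays.

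KO exceeded WT in Cox6a2 by 0.79 ± 0.11 at 0 h (1.73-fold, limma adjusted p = 5.9e-04), by 0.90 ± 0.11 at 2 h (1.87-fold, limma adjusted p = 3.8e-04) and by 0.67 ± 0.11 at 4 h (1.59-fold, limma adjusted p = 0.0036). Averaged over the 3 times the difference was 0.79 ± 0.06 (limma, adjusted p = 8.3e-07), and that call held in every alternative run. The 3 calls at single times ended on the deposited scale, and the 4 h call also ended without array B of KO 4 h (adjusted p = 0.069). A second, dimmer probe set was also higher in KO, by 0.59 ± 0.14 (limma over all probe sets, adjusted p = 0.018).

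Its ubiquitous partner Cox6a1 ran from 12.30 to 12.46 on KO arrays and from 12.26 to 12.41 on WT arrays, and it was called in no comparison. A list of 11 plasmacytoid dendritic cell genes, chosen after the values were seen, had 1 gene higher and 2 lower in KO averaged over the times, with a median of −0.01. Its mean level was 9.09 to 9.15 on KO arrays and 8.99 to 9.14 on WT arrays.

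Other paralogue pairs differed in which member could be measured well. Cox4i2, Cox6b2 and Cox7a1, isoforms known from lung, testis and muscle, stayed between 4.18 and 5.58 on all arrays, close to the filter of 4.73, and none was called. Their widely expressed partners Cox4i1, Cox6b1 and Cox7a2 had signals far above it. Of the 3 ring subunit genes of the ATP synthase, Atp5g1 ran from 8.50 to 9.02 on KO arrays and from 8.40 to 8.56 on WT arrays and was higher in KO (0.27 ± 0.06 over the 3 times, limma adjusted p = 0.011), a call that ended when probe sets were averaged (adjusted p = 0.13). Atp5g2 was higher in KO by 0.14 ± 0.04 (limma, adjusted p = 0.047), a call that ended without any 1 of 11 arrays, and Atp5g3 was not called between genotypes. Ndufa4l2, the hypoxia-inducible paralogue of Ndufa4, was below the filter, at 4.30 to 5.09.

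Averaged over the 3 times, 17 members (22.1%) were higher in KO and 0 lower, against 6.21% higher and 4.28% lower of all genes. At an unadjusted p under 0.05 no member was lower, against 8.79% of all genes. Limma without the intensity trend called 5 members higher (6.49%, against 4.08% of all genes) and 0 lower. Of the 17, 13 belonged to complex I, 3 to the ATP synthase and 1, Cox6a2, to complex IV. The median difference was 0.09, against 0.03 for all genes, and 0.14 for the 34 complex I genes. At each of the 3 times KO exceeded WT for 45 of the 77 members (58.4%), against 25.9% of all genes.

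Ndufc2, a membrane arm subunit of complex I, had 10.34 and 10.37 before stimulation, 10.19 and 10.19 after 2 h, and 10.23 and 10.20 after 4 h in KO cells. In WT cells it had 10.02 and 10.20, then 10.02 and 9.96, then 9.97 and 9.80 at the same times. The KO arrays were higher at each time, with a mean difference of 0.26 ± 0.05 (limma, adjusted p = 0.0014), and 3 of its 4 probe sets were called higher.

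Ndufv2 was higher in KO by 0.23 ± 0.04 over the times (limma, adjusted p = 0.0023) and by 0.37 ± 0.07 at 0 h, where it had 10.15 and 10.14 in KO cells and 9.80 and 9.76 in WT cells (limma, adjusted p = 0.0099). Atp5c1 was higher in KO by 0.19 ± 0.04 over the times (limma, adjusted p = 0.0031), with 11.17 and 11.23 in KO cells and 10.99 and 10.84 in WT cells at 0 h (0.29 ± 0.06 at that time, limma adjusted p = 0.022). The 0 h calls of Ndufv2 and Atp5c1 ended without either array of KO 0 h or without array B of WT 0 h, and those over the times held without any 1 array. The Atp5c1 calls rest on 1 bright probe set, and a dimmer second one was not called (0.05 ± 0.11). The other complex I genes called were Ndufa5, Ndufa12, Ndufb3, Ndufa2, Ndufs4, Ndufv3, Ndufa9, Ndufb7, Ndufb9, Ndufb11 and Ndufb8, with differences of 0.24 to 0.13. Of these calls, those of Ndufa12, Ndufb3 and Ndufa9 held without any 1 array. That of Ndufa5 ended without any 1 of 3 arrays, of Ndufa2 and Ndufs4 of 6, and of Ndufv3 of 8. Those of Ndufb7 and Ndufb9 ended without any 1 of 9, of Ndufb11 of 11 and of Ndufb8 of all 12. Averaging probe sets ended the calls of Ndufa12, Ndufb7, Ndufb9 and Ndufs4 (limma adjusted p from 0.054 to 0.97).

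Of the 77 members, Cox6a2, Ndufa9 and Ndufa12 (3.90%) had all 6 KO arrays above all 6 WT arrays, against 0.868% of all genes. Ndufa9, a subunit at the junction of the complex I arms, ran from 9.28 to 9.42 on KO arrays and from 9.08 to 9.24 on WT arrays. Ndufa12 ran from 10.02 to 10.11 on KO arrays and from 9.72 to 9.99 on WT arrays. For Ndufa12 the probe sets differed, since a dimmer one with no shared-transcript mark was lower in KO by 0.38 ± 0.11 (limma over all probe sets, adjusted p = 0.052). With marked probe sets left out, Ndufa12 was called lower in KO (limma adjusted p = 0.041).

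At single times the calls were few. At 0 h 3 members were higher in KO (Cox6a2, Ndufv2 and Atp5c1), against 1.95% of all genes higher and 1.35% lower. At 2 h Cox6a2 alone was called, against 1.01% higher and 1.29% lower. At 4 h 4 members were higher (Cox6a2, Ndufs4, Ndufs5 and Ndufc2), against 1.13% higher and 1.26% lower, and 0 members were lower at any time. At an unadjusted p under 0.05 1 member was lower at 2 h and 0 at the other times, against 5.20% to 6.18% of all genes.

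Ndufs4, an accessory subunit whose loss in mice causes a Leigh-like encephalopathy, had 8.95 and 9.16 at 4 h in KO cells and 8.68 and 8.61 in WT cells (0.41 ± 0.09, limma adjusted p = 0.020), but its 3 other probe sets differed by −0.14 to 0.13 and the call ended when they were averaged (adjusted p = 0.83). Ndufs5 had 9.51 and 9.60 in KO cells and 9.18 and 9.15 in WT cells at 4 h (0.39 ± 0.08, limma adjusted p = 0.019). The pairs did not overlap, but the 4 h count was 0 without array B of KO 4 h, and 1 without array A or without array B of WT 4 h. At 0 h the count was 1 without either array of KO 0 h or without array B of WT 0 h.

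The direction of the genotype difference depended on the scale. On the deposited scale the median over the times was −0.13 for the members and −0.12 for all genes, 13 of the 17 called differences turned negative and only Cox6a2 was called, while trimmed-mean scaling left 11 calls, all higher in KO. Without array A of KO 0 h 11 members were called over the times, 9 without array B of KO 2 h, and 10 without array B of KO 4 h or array B of WT 2 h. Markers of macrophages and monocytes moved with the genotype, with 8 of 10 higher in KO over the times (median 0.58, Lyz2 0.95 and C1qa 0.75) and none of the 10 below the filter, and dendritic cell markers had 6 of 14 higher and 1 lower. Stromal cell markers had 3 of 6 higher (median 0.21) and B cell markers 2 of 4 (median 0.26), with 0 lower in either list. T cell markers had 0 of 7 higher and 1 lower. Of the 5 NK cell markers 0% were higher and 20% lower, and of the 5 neutrophil markers 0% were called either way. Among all genes 6.21% were higher and 4.28% lower. The part of any of these lists in the members' difference was not tested.

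**Figure D4:**
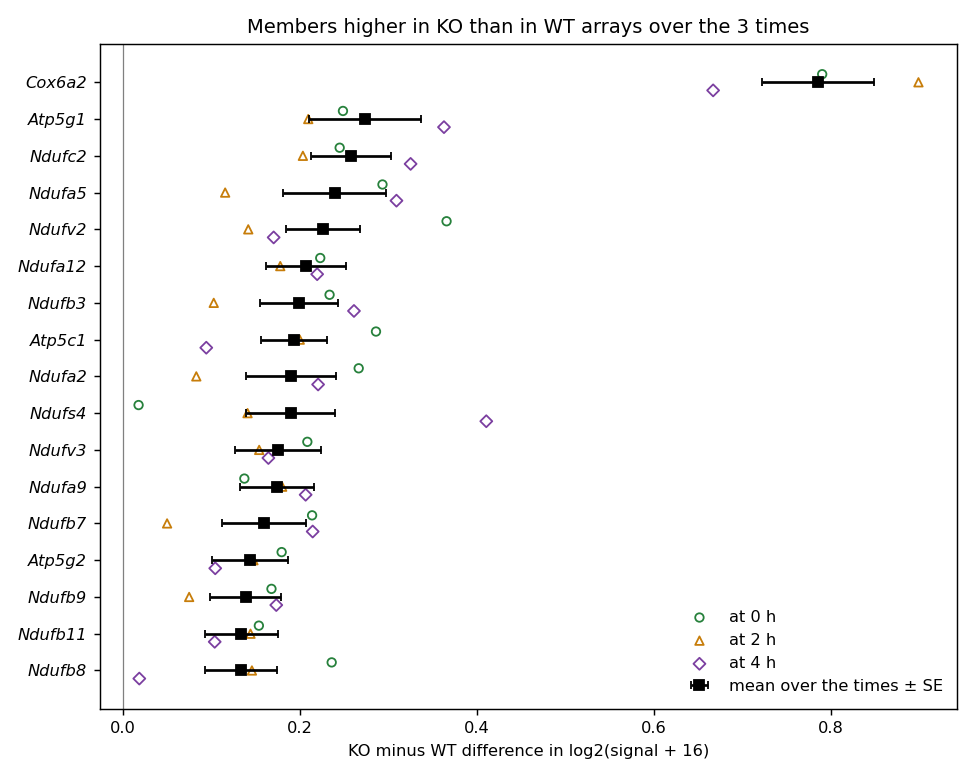
Difference KO minus WT (log2 scale) of the 17 members called higher in KO averaged over the 3 times, with the standard error of the mean difference and the difference at each time. Cox6a2, at 0.79, stands apart from the other 16, which lie between 0.13 and 0.27.

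Genes that build or feed the chain were described from lists chosen by function. Of 42 assembly factors, 9 (21.4%) fell and 1 rose in KO cells at 2 h, and 4 (9.52%) fell and 3 rose at 4 h, against 11.7% and 10.9% of all genes lower. In WT cells 5 (11.9%) fell and 0 rose at 2 h, and 3 (7.14%) fell and 3 rose at 4 h, against 11.5% and 9.9% of all genes lower. Averaged over the times 2 (4.76%) were higher and 3 (7.14%) lower in KO, against 6.21% and 4.28% of all genes. Sdhaf1, which helps insert iron-sulphur clusters into complex II, had 7.86 and 7.80 at 2 h in KO cells, against 8.70 and 8.60 at 0 h (−0.82 ± 0.09, limma adjusted p = 5.9e-06). In WT cells it had 7.95 and 7.97 at 2 h, against 8.68 and 8.62 at 0 h (−0.69 ± 0.09, limma adjusted p = 3.3e-05). Coa5, needed for complex IV assembly, fell by 0.64 in KO cells and by 0.49 in WT cells at 2 h.

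Etfdh passes electrons from fatty acid and amino acid oxidation to coenzyme Q, and it rose. It had 9.42 and 9.31 at 2 h in KO cells, against 7.96 and 8.04 at 0 h (1.37 ± 0.08, limma adjusted p = 8.1e-09). In WT cells it had 9.61 and 9.73 at 2 h, against 8.07 and 8.02 at 0 h (1.63 ± 0.08, limma adjusted p = 7.9e-10). Averaged over the times Etfdh was lower in KO by 0.24 ± 0.05 (limma, adjusted p = 0.0043), the opposite sign to the 17 members. Of the 22 genes tested in its list (cytochrome c, quinone and carrier genes), 3 (13.6%) were higher and 3 lower in KO over the times. Slc25a4, the ADP/ATP carrier of the inner membrane, fell in KO cells by 0.34 at 2 h and in WT cells by 0.28.

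Of 17 genes of the tricarboxylic acid cycle, which supplies the chain with NADH and succinate, 3 (17.6%) fell and 0 rose in each comparison over time, against 9.9% to 11.7% of all genes lower. Averaged over the times 3 (17.6%) were higher in KO and 0 lower, against 6.21% and 4.28% of all genes. The median genotype difference of the 17 genes was 0.13, against 0.09 for the members, so the higher level in KO was not particular to the chain. Cs, which makes citrate, had 9.46 and 9.38 at 2 h in KO cells, against 9.66 and 9.72 at 0 h (−0.27 ± 0.07, limma adjusted p = 0.015). Suclg1, a subunit of succinate-CoA ligase, fell by 0.42 in KO cells and by 0.34 in WT cells at 2 h. Acod1 diverts a cycle intermediate to itaconate, an inhibitor of complex II, in activated macrophages and dendritic cells. It had 9.97 and 9.95 at 2 h in KO cells, against 7.72 and 7.55 at 0 h (2.33 ± 0.13, limma adjusted p = 2.0e-09), and 9.59 and 9.66 at 2 h in WT cells, against 7.71 and 7.23 at 0 h (2.16 ± 0.13, limma adjusted p = 3.9e-09). Nos2, whose product nitric oxide inhibits complex IV, was below the filter, at 4.08 to 4.25 on all arrays.

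Of 19 regulators of mitochondrial biogenesis, 2 (10.5%) rose and 1 (5.26%) fell at 2 h in each genotype, against 7.85% and 8.43% of all genes higher and 11.7% and 11.5% lower in KO and in WT cells. Gabpb1, a subunit of the ETS factor GABP, rose by 0.66 in KO cells and by 0.45 in WT cells at 2 h. Pprc1, a coactivator of the same family as Ppargc1b, rose by 0.40 in KO cells and by 0.39 in WT cells. Ppargc1b was lower in WT cells at 2 h, with 4.84 and 4.14 against 5.49 and 5.50 at 0 h (limma, adjusted p = 0.0083), and its 2 h value in WT array B was below the filter. None of the 19 was called between genotypes over the times.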

How the data were processed

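RNA of 12 samples was measured on Affymetrix mouse 3′ arrays, 2 per group. The deposited values are linear intensity signals per probe set, made by the authors with MAS5 per the submitters' processing notes; the sources used here give neither its version nor its scaling target. The platform annotation gave a single symbol to 34958 of 45101 probe sets. The brightest probe set stood for each gene, and 12792 genes whose mean reached the 40th percentile (4.73 on the log2 scale, a signal of 10.6) were tested. Intensities were quantile-normalised, because their trimmed means differed, and tested as log2(signal + 16), which understates changes of dim genes. The number of arrays limits the precision.

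One model of 6 group means was fitted in R 4.3.3 with limma 3.58.1 (lmFit, eBayes with trend), with 6 degrees of freedom from the residuals and 9.13 from the prior. All tests were two-sided, and p-values were adjusted over all genes (Benjamini-Hochberg). Scripts were tested on simulated data. Alternatives were other scalings, pseudocounts (1 and 64), filters, probe set rules, eBayes without trend, a replicate block and leaving out each array.

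Members, lists and settings were chosen with earlier results of these data known. The genes named were Mapk14 and, in each comparison, up to 4 called members with the largest changes each way whose arrays did not overlap. In each comparison up to 3 called members per complex by p were named as well. The rule added the 2 members of each complex with the highest level and paralogues with tissue-specific forms. It also added members whose probe sets conflict, and up to 3 called genes per other list. Uqcr11, Nos2, the macrophage markers and the remaining members called between genotypes over the times (such as Ndufa5) were named after their values were seen.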

Additional observations from a re-analysis of the deposited data

How the results depend on the processing

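With the deposited scale the members called numbered 37 at 2 h and 0 at 4 h in KO cells, 2 and 0 in WT cells, 0 between genotypes at each single time and 1 (Cox6a2) averaged over the times. On that scale the genotype difference turned negative for Atp5c1 (−0.0402), Atp5g2 (−0.0785), Ndufa12 (−0.0216), Ndufa2 (−0.0376), Ndufa9 (−0.0352), Ndufb11 (−0.0844), Ndufb3 (−0.0121), Ndufb7 (−0.0645), Ndufb8 (−0.0879), Ndufb9 (−0.0807), Ndufs4 (−0.0196), Ndufv2 (−0.0037) and Ndufv3 (−0.0326), where the median of all genes was −0.12. Trimmed-mean scaling called 8 members in KO and 3 in WT cells at 2 h, and 11 between genotypes over the times. Omitting the filter on low signals, or averaging the probe sets of a gene, left 5 called in WT cells at 2 h, and averaging probe sets left 2 called between genotypes at 4 h and 11 over the times. Without probe sets marked as shared, 5 were called in KO cells at 4 h. Between genotypes, 1 was then higher and 1 lower in KO at 2 h, and 15 were higher and 1 lower over the times. In that setting 2 gene results changed sign, Cox5b in WT cells at 4 h (0.0027) and Ndufa12 between genotypes over the times. The Ndufa12 difference there was −0.38, called lower in KO (limma adjusted p = 0.041). Limma without the intensity trend called 3 and 4 members in KO cells and 2 and 5 in WT cells at 2 h and 4 h, and 1 at 0 h, 1 at 4 h and 5 over the times between genotypes. Leaving out 1 array gave 5 to 20 calls at 2 h and 5 to 9 at 4 h in KO cells, 4 to 10 and 5 to 11 in WT cells, 1 to 4, 1 to 2 and 0 to 4 between genotypes at 0 h, 2 h and 4 h, 9 to 16 over the times, and 0 to 0 for both response differences. Pseudocounts of 1 and 64 each kept 73 of 74 called gene results, and the filter at the 60th percentile kept all 74. The causes of these changes were not tested. The labels do not say whether the letters A and B pair the arrays. Differences of array B minus array A correlated between −0.04 and 0.10 over 15 pairs of groups. Such low values cannot show whether same-letter arrays shared an animal or a culture. With the letter as a replicate block 22 and 9 members were called in KO cells and 11 and 12 in WT cells at 2 h and 4 h, 3, 1, 4 and 18 between genotypes at 0 h, 2 h, 4 h and over the times, and 0 for both response differences, and 73 of 74 called gene results were kept.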

Other observations

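Probe sets for 1 gene did not always move alike. Of the members, 45 had another probe set above the filter, and 1, Uqcr10 of complex III, had a called change opposite in sign to its brightest probe set. In WT cells at 2 h against 0 h its brightest probe set differed by 0.07 ± 0.13 and a dimmer one by −0.54 ± 0.15 (limma over all probe sets, adjusted p = 0.026).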
